A study of Mus musculus with 36 samples.

Results

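The pair described here is mouse embryonic stem cells treated with BPK25 at day 4 and the same kind of cells treated with IAA at day 2. It comprises 6 of the 36 RNA-seq libraries of the study, 3 in each group. All 55335 genes of the count table were considered, and 17394 of them had enough reads to be tested. The pair was chosen by measured values: of the 11 other groups, IAA day 2 lay nearest to BPK25 day 4 in mean log2 expression. That choice used the levels of all genes in both groups, so their similar levels are no finding, and the direct contrast between them is given without a test.

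Embryonic stem cells are pluripotent cells of the early embryo. They were grown with LIF (a cytokine that sustains self-renewal) in medium with serum replacement, typically on gelatin with irradiated fibroblast feeder cells. BPK25 is a compound known here by its code name. IAA is an auxin, a plant hormone that triggers destruction of a protein carrying an auxin-inducible degron. DMSO, the solvent commonly used for such compounds, was the control at each day. The 4 groups used most were BPK25 day 4, IAA day 2, DMSO day 2 and DMSO day 4, each with 3 libraries. The labels used here do not name the tagged protein, the genotype, the dose or what the days count from, and they do not say whether the BPK25 and IAA libraries came from 1 clone. Whether the 3 replicates of a group were grown separately is not stated either. A p-value here therefore reflects variation among the libraries sequenced, and that variation may be technical only.

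The series title concerns NuRD, a complex that combines a chromatin remodelling ATPase with histone deacetylases, and CTCF, the DNA-binding protein that anchors chromatin loops and domain borders. NuRD is known for removing acetyl groups from histones at regulatory elements and for holding down genes of other lineages while stem cells leave the pluripotent state. As stem cells leave that state they lower Nanog and Tdgf1 and turn on genes of early endoderm, mesoderm and epithelium.

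BPK25 day 4 stood apart from the other days of BPK25. Gkn1, which encodes a secreted gastrokine best known from the stomach, averaged 17.9, 24.5, 0.0893 and 102.5 CPM (counts divided by the scaled total of the library, so that depths are alike) in BPK25 at days 0, 2, 4 and 6. In DMSO it averaged 16.4, 20.9, 19.4 and 104.7 CPM at those days, and in IAA 3.80, 0.0646, 0 and 0.406 CPM. Only on day 4 was the BPK25 mean of Gkn1 far below DMSO, whereas IAA was below DMSO at all 4 days. Cyp1a1 averaged 1.01, 0.831, 66.6 and 6.00 CPM in BPK25 at the 4 days. It averaged 0.757, 0.846, 1.30 and 5.89 CPM in DMSO and 0.148, 0.0317, 0.0881 and 0.113 CPM in IAA. Over all genes, the BPK25 effect at day 4 differed from that at day 2 for 3452 genes in the higher and 3583 in the lower direction (19.8% and 20.6% of genes tested, 40.4% together), by edgeR's quasi-likelihood test with Benjamini-Hochberg adjustment. The cause of this step was not tested. These 3 libraries also carry many of the changes that IAA made at other days, with counts given at the end. No targeted gene is named by which their label could be checked. Whether their label is right was not tested and cannot be told from these data. BPK25 day 4 means the libraries so labelled throughout. Every result on BPK25 day 4 rests on those 3 libraries, and without them the pair cannot be compared.

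Library totals in the 6 libraries were 7531276 to 11983431 counts over genes, within the 6621288 to 16497799 of the whole series. The 12 defining markers of stem cells were all detected. Their summed level was 1261.9 to 1289.2 CPM in BPK25 day 4, 1801.4 to 1821.6 in IAA day 2, 1449.2 to 1556 in DMSO day 4 and 3008.3 to 3052.8 in DMSO day 2. The 25 feeder markers summed to 329.55 to 344.01 CPM in BPK25 day 4, 173.2 to 180.44 in IAA day 2, 208.29 to 231.75 in DMSO day 4 and 147.58 to 157.13 in DMSO day 2. Tagln, itself in that list, made up 99.7 CPM of the mean sum in BPK25 day 4. Dcn, Lum and S100a4, which define fibroblasts, had 0 counts in all 3 libraries of both groups (as had Fap in IAA day 2), while in DMSO day 2 and day 4 no marker was at 0 in all 3 libraries. Of the 23 feeder markers tested, 8 were higher and 7 lower in BPK25 day 4 than in its DMSO, beside 26.2% and 26.8% of all genes. In IAA day 2, 6 were higher and 10 lower, beside 27.5% and 27.9%. The part of feeder cells in the results was not tested, and in bulk RNA fewer cells of a type cannot be told apart from less RNA per cell.

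The distance used for pairing was the root mean square difference of group mean log2 CPM. IAA day 2 lay 0.506 from BPK25 day 4, DMSO day 4 was next at 0.608, and IAA day 4 followed at 0.652. BPK25 at days 2 and 6 lay farther away, at 0.768 and 0.689. Single libraries of the pair lay 0.561 to 0.610 apart, whereas replicates within BPK25 day 4 lay 0.320 to 0.360 apart and within IAA day 2 0.346 to 0.372. The nearness was not mutual, since the group nearest to IAA day 2 was DMSO day 4, at 0.493.

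**Figure D1:**
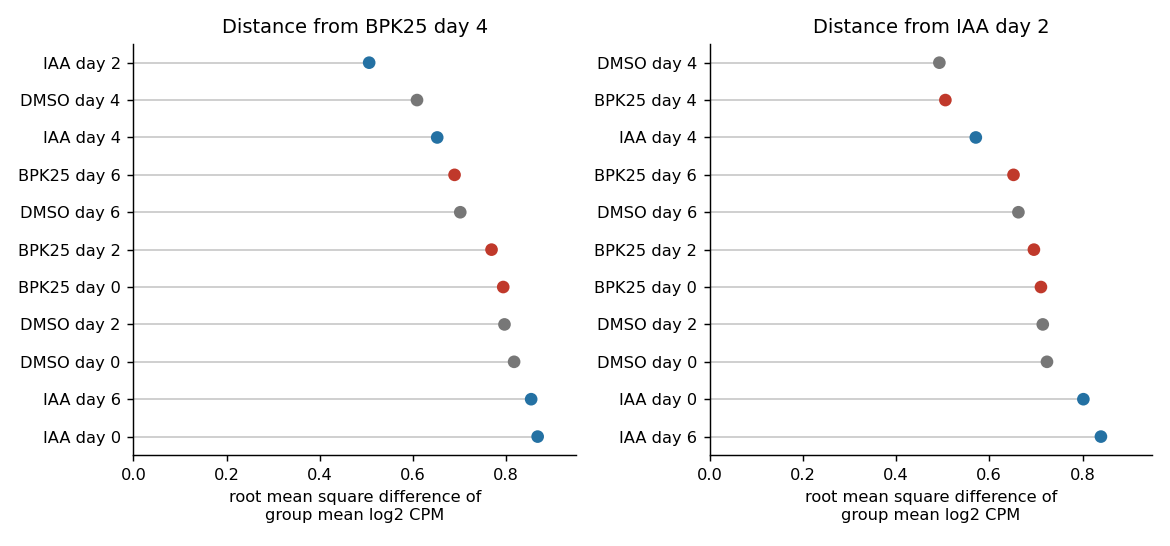
Distance of each other group from BPK25 day 4 (left) and from IAA day 2 (right), as the root mean square difference of group mean log2 CPM over the genes tested; each point is a group of 3 libraries, grey for DMSO, red for BPK25 and blue for IAA. IAA day 2 is nearest to BPK25 day 4 at 0.506, and DMSO day 4 is nearest to IAA day 2 at 0.493.

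To see what the pair shared, each group was compared with DMSO of its own day. These comparisons have no library in common, but they hold the treated levels by which the pair was chosen. The counts of shared genes and the correlation are therefore a description. The test of the difference between the effects, below, draws on the same levels. In BPK25 day 4, 4562 genes were higher and 4654 lower than in DMSO day 4 (26.2% and 26.8% of genes tested, 53% together). In IAA day 2, 4777 were higher and 4861 lower than in DMSO day 2 (27.5% and 27.9%, 55.4% together). Counts of list members given below are to be read beside these shares. Higher in both were 2017 genes, 44.2% of the BPK25 list and 42.2% of the IAA list, and lower in both were 2106, 45.3% and 43.3%. Another 813 genes were higher in BPK25 day 4 and lower in IAA day 2, and 921 the other way round. At least 2-fold higher were 1081 genes in BPK25 day 4 (6.21%) and 1135 in IAA day 2 (6.53%), and at least 2-fold lower were 686 (3.94%) and 1222 (7.03%). Among changes of at least 2-fold in both, 169 genes were higher in both (15.6% and 14.9% of the 2-fold lists) and 262 were lower in both (38.2% and 21.4%), against 95 and 51 in opposite directions. Across the 17394 genes, which are not independent replicates, the effects correlated with a Pearson r of 0.237 and a Spearman rho of 0.233, which fell to 0.0842 and 0.113 without the filter on low counts.

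The difference between the effects, tested gene by gene as the change in BPK25 day 4 minus the change in IAA day 2, was called for 3945 genes in the higher and 4140 in the lower direction (22.7% and 23.8%, 46.5% together). Set directly beside IAA day 2, 866 genes were at least 2-fold higher in BPK25 day 4 with no overlap of libraries, and 293 were lower (4.98% and 1.68%, 6.66% together, no test). Without the filter on low counts these numbers were 1579 and 641. Genes are called separated here where both held in the same direction, which was so for 553 higher and 163 lower in BPK25 day 4. Of the 553, 442 were higher than DMSO in BPK25 day 4 and 253 were lower than DMSO in IAA day 2. Of the 163, 96 were lower than DMSO in BPK25 day 4 and 116 were higher than DMSO in IAA day 2.

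**Figure D2:**
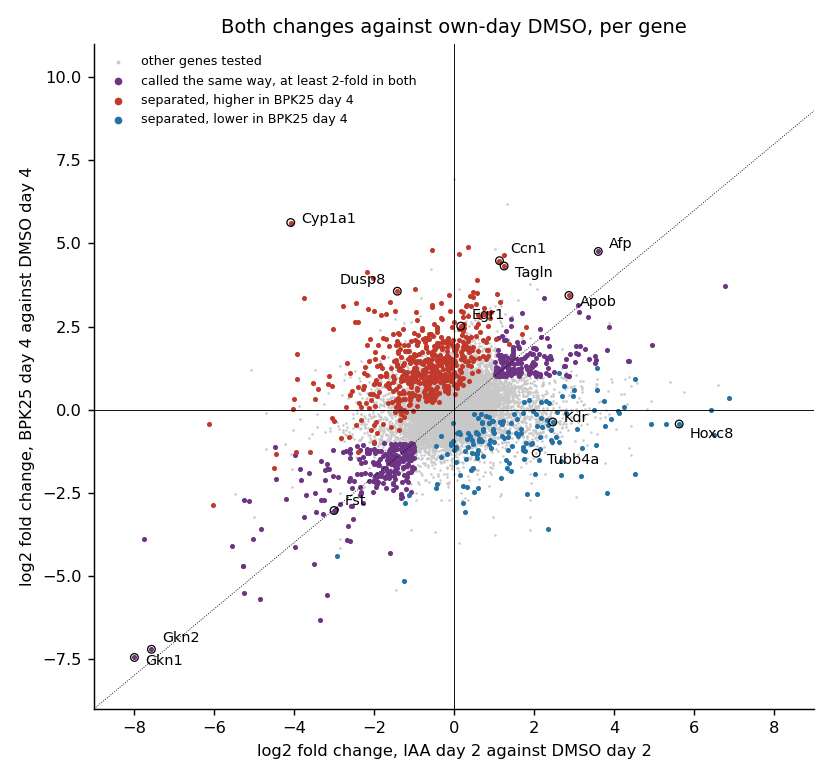
Log2 fold change against DMSO of the same day for each gene tested, IAA day 2 on the horizontal axis and BPK25 day 4 on the vertical axis; purple points changed at least 2-fold the same way in both, red and blue points are separated genes, and the dotted line marks equal change. Gkn1, Gkn2 and Fst lie near the line at the lower left, Cyp1a1 at the upper left and Hoxc8 at the right; fitted values of genes with few counts, such as Gkn1 and Cyp1a1, depend on the prior count.

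The gastrokine genes Gkn1 and Gkn2 led the decreases shared by both groups. They are neighbours on chromosome 6 (Gkn1 chr6:87345650-87350942 on the minus strand, Gkn2 chr6:87373357-87379497 on the plus strand, GRCm38). Their promoters are shown because they moved together in both groups. The windows are the 250 bases before the RefSeq start (GRCm38.p6), lie 21949 bases apart and face opposite ways. Capitals mark a match to the AP-1 motif TGANTCA, which starts 174 bases before the Gkn1 start and reads the same on both strands. Both strands were searched for this motif, for the core of the aryl hydrocarbon receptor site (GCGTG), for the TEAD motif (GGAATG) and for the CArG box bound by SRF. Of 27025 promoters of that length, 6.87%, 28.2%, 12.6% and 1.4% held them. No match printed here overlaps another of these 4 motifs, and no other motif was searched for. The Gkn2 window held none of the 4.
Gkn1 chr6:87350916-87351165 minus: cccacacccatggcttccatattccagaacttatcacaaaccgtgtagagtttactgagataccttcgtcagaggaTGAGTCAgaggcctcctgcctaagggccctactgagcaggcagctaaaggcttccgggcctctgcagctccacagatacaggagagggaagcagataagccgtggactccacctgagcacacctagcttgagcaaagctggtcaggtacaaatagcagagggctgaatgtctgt
Gkn2 chr6:87373115-87373364 plus: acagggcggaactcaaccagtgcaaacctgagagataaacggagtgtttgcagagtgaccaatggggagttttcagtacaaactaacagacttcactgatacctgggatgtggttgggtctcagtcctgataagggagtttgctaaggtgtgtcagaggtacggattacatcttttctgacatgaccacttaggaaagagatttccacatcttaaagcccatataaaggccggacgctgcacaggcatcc

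Gkn1 was at 22.4, 17.3 and 18.7 CPM in DMSO day 4 and at 0.0829, 0 and 0.185 CPM in BPK25 day 4. It was at 21.9, 17.7 and 23.1 CPM in DMSO day 2 and at 0, 0.0987 and 0.0950 CPM in IAA day 2. Both treated groups were thus almost empty of Gkn1 reads, with 3 and 2 counts in all, and neither overlapped its DMSO. The ratio of DMSO to treated was 198.5 for BPK25 day 4 (95% counting interval 67.56 to 965.5) and 301.6 for IAA day 2 (83.08 to 2497). Gkn2 had 22.7, 19.6 and 21.7 CPM in DMSO day 4 against 0.249, 0.132 and 0 in BPK25 day 4, and 20.1, 21 and 25 CPM in DMSO day 2 against 0, 0.197 and 0.0950 in IAA day 2. The effects on Gkn1 and Gkn2 did not differ detectably at these counts (adjusted p = 0.748 and 0.805). Pga5, a pepsinogen gene, fell by 3.07 ± 0.19 (approximate standard error, log2) in BPK25 day 4 and by 3.45 ± 0.22 in IAA day 2. Mucl3 fell by 4.39 ± 0.19 and 2.92 ± 0.18, and here the effects differed (adjusted p = 0.000622). Trpc5os fell by 4.64 ± 0.27 and 3.49 ± 0.33.

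Fst encodes follistatin, a secreted protein that binds and neutralises activin (chr13:114452290-114458951, minus strand). It was at 39.6, 37.1 and 37.9 CPM in DMSO day 4 and at 5.64, 3.81 and 4.16 in BPK25 day 4. It was at 39.7, 40.3 and 40.5 CPM in DMSO day 2 and at 4.45, 5.72 and 4.75 in IAA day 2. Both treated groups sat far below both DMSO groups and overlapped each other. Fst fell by 3.04 ± 0.11 in BPK25 day 4 (adjusted p = 1.63e-28) and by 3.0 ± 0.11 in IAA day 2 (adjusted p = 1.57e-28), a difference of -0.03 ± 0.18 (adjusted p = 0.896). In BPK25 at days 0, 2 and 6 Fst averaged 39.5, 39.0 and 82.5 CPM. Gm47040 overlaps an Fst exon on the other strand, and without a known strand setting reads of such pairs cannot be told apart.

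Myo7a, an unconventional myosin of sensory hair cells, was at 84.8, 84.8 and 85.9 CPM in DMSO day 4 and at 13.2, 12.8 and 12.9 in BPK25 day 4. In DMSO day 2 it was at 105, 89.3 and 99.0 CPM and in IAA day 2 at 9.78, 9.77 and 9.40. It fell by 2.71 ± 0.068 and by 3.34 ± 0.072, more in IAA (adjusted p of the difference 8.19e-06). Mgp, which encodes an inhibitor of calcification in cartilage and vessel walls, fell by 2.74 ± 0.40 and 5.13 ± 0.38. The BMP antagonist gene Nog fell by 2.05 ± 0.42 and 2.61 ± 0.46. The gene for fibrillar collagen III, Col3a1, which is also a feeder marker, fell by 2.24 ± 0.35 and 1.52 ± 0.40. The gastrokine and secreted list, whose members were picked with these data known, had 7 of 8 tested members lower in BPK25 day 4 (median -3.57) and 6 lower in IAA day 2 (median -2.25). Over all genes the median was -0.01 in both comparisons, and 26.8% were lower in BPK25 day 4 and 27.9% in IAA day 2.

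H19, an imprinted long noncoding RNA (chr7:142575529-142578143, minus strand), was lowered alike against its own-day control while the control itself moved. It was at 182, 186 and 169 CPM in DMSO day 4 and 44.3, 48.9 and 51.3 in BPK25 day 4, and at 84.7, 74.8 and 78.3 CPM in DMSO day 2 and 19.9, 22.2 and 23.8 in IAA day 2. It fell by 1.90 ± 0.067 and 1.84 ± 0.085, a difference of -0.06 ± 0.11 (adjusted p = 0.674). Igf2, the growth factor gene next to it, was at 10.6, 8.87 and 7.93 CPM in DMSO day 4 and 25.1, 25.4 and 26.9 in BPK25 day 4, and at 2.15, 0.402 and 2.17 CPM in DMSO day 2 and 35.7, 35.3 and 30.4 in IAA day 2. It rose by 1.48 ± 0.10 and by 4.35 ± 0.15, so the neighbours moved in opposite directions in both groups. The rise of Igf2 was larger in IAA (adjusted p of the difference 1.32e-15). Of 34 imprinted genes tested, 14 rose and 5 fell in BPK25 day 4, beside 26.2% and 26.8% of all genes. In IAA day 2, 19 rose and 5 fell, beside 27.5% and 27.9%, and 10 rose in both. Peg10 rose by 0.95 ± 0.038 and 2.72 ± 0.041, and Kcnq1ot1, an imprinted antisense RNA, rose in both, by 1.71 and 0.89.

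Genes of secreted plasma proteins made by visceral endoderm and liver led the shared increases. Afp (alpha-fetoprotein, chr5:90490737-90508907) was at 1.06, 0.763 and 0.881 CPM in DMSO day 4 and 27.0, 24.1 and 22.9 in BPK25 day 4, and at 0.287, 0.134 and 0.284 CPM in DMSO day 2 and 2.67, 4.24 and 2.19 in IAA day 2. It rose by 4.76 ± 0.19 (adjusted p = 4.04e-26) and by 3.60 ± 0.43 (adjusted p = 7.45e-10), with a difference of 1.16 ± 0.78 that did not pass (adjusted p = 0.229). Apoa1, the main protein of high-density lipoprotein, rose by 3.15 ± 0.16 and 3.08 ± 0.31. Ttr, a carrier of thyroid hormone and retinol-binding protein, rose by 2.94 ± 0.17 and 3.12 ± 0.28. Apob, the structural protein of low-density lipoprotein (chr12:7977648-8016835), was at 9.62, 11.3 and 10.9 CPM in DMSO day 4 and 119, 110 and 114 in BPK25 day 4, and at 6.31, 5.09 and 5.67 CPM in DMSO day 2 and 41.5, 42.3 and 40.6 in IAA day 2. The 4 groups of Apob did not overlap, and its rise was larger in BPK25 day 4 (3.44 ± 0.079 against 2.87 ± 0.11, adjusted p of the difference 0.00278). Among transcription factor genes of the same lineage, Sox17 fell by 1.02 ± 0.086 and 0.51 ± 0.094 and Gata4 by 1.51 ± 0.098 and 1.07 ± 0.091, while Foxa1 rose by 0.39 and 1.43. Of 26 endoderm genes tested, 14 rose and 10 fell in BPK25 day 4, beside 26.2% and 26.8% of all genes. In IAA day 2, 15 rose and 4 fell, beside 27.5% and 27.9%, with 10 higher and 3 lower in both.

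Keratins of simple epithelia rose by similar amounts. Krt18 (chr15:102028180-102032027) was at 24.2, 24.3 and 25.6 CPM in DMSO day 4 and 87.6, 85.0 and 95.3 in BPK25 day 4, and at 11.6, 12.3 and 11.9 CPM in DMSO day 2 and 52.5, 43.2 and 50.1 in IAA day 2. It rose by 1.86 ± 0.066 and 2.02 ± 0.086 (difference -0.16 ± 0.12, adjusted p = 0.276). Its partner Krt8 rose by 1.21 ± 0.061 and 1.45 ± 0.068, and Krt19 by 1.36 ± 0.13 and 1.37 ± 0.17. In the list of keratins and trophectoderm genes, 13 of 24 rose and 4 fell in each comparison, 9 rose in both and none fell in both. The shares of all genes were 26.2% and 26.8% in BPK25 day 4 and 27.5% and 27.9% in IAA day 2. Pygl, the liver form of glycogen phosphorylase, rose by 1.91 ± 0.089 and 3.03 ± 0.14, and Meltf by 1.93 ± 0.21 and 2.36 ± 0.25.

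Contractile and cytoskeletal genes, many of them targets of the transcription factor SRF, were also higher in both. Of 27 tested, 23 rose and 2 fell in BPK25 day 4 (median 0.88), beside 26.2% and 26.8% of all genes. In IAA day 2, 22 rose and 1 fell (median 0.64), beside 27.5% and 27.9%, and 19 rose in both. In DMSO itself 17 rose and 2 fell from day 2 to day 4 (median 0.57), beside 26.6% and 24.5%. Against DMSO day 4, 13 were higher and 2 lower in IAA day 2 (median 0.12), beside 18.8% and 19.9%. Vcl, which encodes vinculin of cell-matrix contacts, was at 140, 144 and 134 CPM in DMSO day 4 and 393, 420 and 388 in BPK25 day 4, and at 90.3, 89.2 and 87.5 CPM in DMSO day 2 and 244, 239 and 240 in IAA day 2. It rose by 1.52 ± 0.045 and 1.44 ± 0.049 (difference 0.08 ± 0.066, adjusted p = 0.33). The skeletal actin gene Acta1 rose by 3.36 ± 0.27 and 2.25 ± 0.60. It also rose by 1.78 ± 0.65 in DMSO from day 2 to day 4. In IAA day 2, Acta1 had 0.47 ± 0.43 against DMSO day 4 (adjusted p = 0.44), from 23 counts in all. Tpm2, a tropomyosin gene, rose by 1.08 and 1.10.

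Energy metabolism and ribosomal protein genes moved the same way in both groups by smaller amounts. Of 33 glycolysis and hypoxia genes, 27 rose and 4 fell in BPK25 day 4 and 21 rose and 6 fell in IAA day 2, with 18 higher in both. For this and the next lists, the shares of all genes were 26.2% and 26.8% in BPK25 day 4. In IAA day 2 they were 27.5% and 27.9%. The lactate dehydrogenase gene Ldha rose by 1.05 ± 0.040 and 0.45 ± 0.040, and the aldolase gene Aldoa by 1.18 ± 0.043 and 0.26 ± 0.043, both more in BPK25 day 4 (adjusted p of the difference 9.19e-13 and 5.89e-18). Of 13 genes encoded in mitochondrial DNA, 11 and 10 rose and none fell, and 9 rose in both. The share of all counts in those genes was 1.96% ± 0.103 (SD, n = 3) in BPK25 day 4, 1.72% ± 0.0646 in IAA day 2, 1.22% ± 0.074 in DMSO day 2 and 1.40% ± 0.0493 in DMSO day 4. Of 83 cytosolic ribosomal protein genes, 50 fell and 7 rose in BPK25 day 4 (median -0.14), 68 fell and 5 rose in IAA day 2 (median -0.33), and 46 fell in both. Aminoacyl-tRNA synthetase genes, also of protein synthesis, did not move alike. Among 20, 7 rose and 6 fell in BPK25 day 4 (median 0.01), while 2 rose and 16 fell in IAA day 2 (median -0.38). In DMSO 16 of them fell from day 2 to day 4. Of 25 mitosis genes, 15 and 14 fell and 10 fell in both.

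Of the separated genes named here, Cyp1a1 had the largest gap. It is a cytochrome P450 gene and the classical target of the aryl hydrocarbon receptor. It was at 66.7, 64.1 and 69.0 CPM in BPK25 day 4 and 1.54, 1.33 and 1.03 in DMSO day 4, whereas it was at 0, 0 and 0.0950 CPM in IAA day 2 and 1.43, 0.535 and 0.567 in DMSO day 2. The group pairs moved apart, up in BPK25 day 4 and down to a single count in IAA day 2. Cyp1a1 rose by 5.63 ± 0.14 in BPK25 day 4 (adjusted p = 2.83e-34), and in IAA day 2 DMSO exceeded it 22.8 times (95% counting interval 3.647 to 945.2, adjusted p of the fall 3.92e-05). The effects differed with an adjusted p of 1.63e-14. The ratio of BPK25 day 4 to IAA day 2 was 1908 (interval 342 to 75390, from 2038 against 1 counts).

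Other genes of the receptor's list moved less. Of 17 tested, 11 rose and 4 fell in BPK25 day 4 (median 0.68), beside 26.2% and 26.8% of all genes. In IAA day 2, 7 rose and 4 fell (median -0.03), beside 27.5% and 27.9%. The ADP-ribosyltransferase gene Tiparp was at 124, 133 and 130 CPM in BPK25 day 4 and 46.8, 50 and 47 in IAA day 2. It rose by 1.53 ± 0.052 in the former and fell by 0.18 ± 0.058 in the latter. Cyp1b1 rose in both, by 2.26 ± 0.12 and 1.69 ± 0.16, as did the receptor gene Ahr itself, by 0.98 and 0.89. The Cyp1a1 promoter (chromosome 9, before the RefSeq start) held the receptor core GCGTG starting 54 bases before the start. A match to the CArG pattern starts 32 bases before it, and both are in capitals. That match contains TATAAA, the sequence of a TATA box (a core promoter element), which was not among the motifs searched. A match to a pattern does not show that SRF or the receptor binds there, which was not tested.
Cyp1a1 chr9:57697363-57697612 plus: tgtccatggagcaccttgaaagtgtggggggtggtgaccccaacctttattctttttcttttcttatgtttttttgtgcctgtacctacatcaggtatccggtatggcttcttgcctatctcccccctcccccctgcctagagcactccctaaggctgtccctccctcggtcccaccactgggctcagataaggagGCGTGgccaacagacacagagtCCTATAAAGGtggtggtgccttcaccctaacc

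Ccn1 and Ankrd1, genes that the coactivator YAP drives through TEAD factors, rose in both groups but far more in BPK25 day 4. Their promoters are shown for the TEAD motif in capitals. In Ccn1 it lies on the reverse strand 103 bases before the start, beside a reverse GCGTG at 47 bases. In Ankrd1 it starts 210 and 123 bases before the start.
Ccn1 chr3:145649986-145650235 minus: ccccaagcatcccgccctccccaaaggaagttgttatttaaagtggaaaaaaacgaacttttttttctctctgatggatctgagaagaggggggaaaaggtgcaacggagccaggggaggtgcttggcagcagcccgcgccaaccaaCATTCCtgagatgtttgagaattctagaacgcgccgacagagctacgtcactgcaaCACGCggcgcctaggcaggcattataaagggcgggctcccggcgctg
Ankrd1 chr19:36119845-36120094 minus: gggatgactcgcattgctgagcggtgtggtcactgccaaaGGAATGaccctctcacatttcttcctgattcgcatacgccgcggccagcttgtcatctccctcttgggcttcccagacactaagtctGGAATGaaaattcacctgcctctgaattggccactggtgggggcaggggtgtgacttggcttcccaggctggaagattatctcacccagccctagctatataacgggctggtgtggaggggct

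Ccn1, which encodes a matrix-associated signalling protein, was at 304, 292 and 292 CPM in BPK25 day 4 and 12, 13.5 and 14.5 in DMSO day 4. It was at 24.8, 30.1 and 26.9 CPM in IAA day 2 and 12.3, 12.3 and 12.8 in DMSO day 2. Neither treated group overlapped its DMSO, and BPK25 day 4 stood far above the other 3 groups. Ccn1 rose by 4.48 ± 0.072 in BPK25 day 4 (adjusted p = 9.69e-43) and by 1.13 ± 0.10 in IAA day 2 (adjusted p = 1.49e-13), and the effects differed by 3.35 ± 0.14 (adjusted p = 4.97e-25). Ankrd1, a stretch-responsive nuclear protein gene of muscle, was at 8.45, 6.97 and 6.84 CPM in BPK25 day 4 and 0.192, 0.477 and 0.147 in DMSO day 4, against 1.02, 0.888 and 0.760 in IAA day 2 and 0.143, 0.535 and 0.378 in DMSO day 2. It rose by 4.64 ± 0.34 and by 1.26 ± 0.55, the latter just past the threshold (adjusted p = 0.0497). Ccn2, a related gene, rose by 1.51 ± 0.073 in BPK25 day 4 and fell by 0.65 ± 0.096 in IAA day 2. Of 33 YAP targets and Hippo pathway genes, 17 rose and 9 fell in BPK25 day 4, beside 26.2% and 26.8% of all genes. In IAA day 2, 14 rose and 6 fell, beside 27.5% and 27.9%. The difference was called higher for 11 and lower for 11, beside 22.7% and 23.8%. Directly compared, 8 of the 33 were at least 2-fold higher in BPK25 day 4 and none lower, beside 4.98% and 1.68% of all genes.

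Tagln, a smooth muscle actin-binding protein gene and SRF target, was at 104, 102 and 92.9 CPM in BPK25 day 4 and 6.45, 4.00 and 4.26 in DMSO day 4, and at 7.24, 6.61 and 7.03 CPM in IAA day 2 and 3.15, 2.41 and 3.12 in DMSO day 2. It rose by 4.32 ± 0.098 and 1.25 ± 0.19, a difference of 3.07 ± 0.26 (adjusted p = 4.47e-14). Exons of Pcsk7 overlap Tagln on the other strand. Calponin gene Cnn1 rose by 2.77 ± 0.14 and 0.90 ± 0.21, and Srf itself by 1.78 ± 0.063 and 0.46 ± 0.080, both more in BPK25 day 4. Vim, the intermediate filament gene of mesenchyme, went the opposite way, with -0.38 in BPK25 day 4 and 1.01 in IAA day 2.

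Immediate early genes, which are transcribed within minutes of growth factor or stress signals, formed the list with the widest gap among those higher in BPK25 day 4. Of 28 tested, 26 rose and 1 fell in BPK25 day 4 (median 1.56), beside 26.2% and 26.8% of all genes. In IAA day 2, 8 rose and 11 fell (median -0.17), beside 27.5% and 27.9%. The difference was called higher for 24 and lower for none, beside 22.7% and 23.8% of all genes. The transcription factor gene Egr1 was at 42.4, 43.4 and 45.9 CPM in BPK25 day 4 and 7.99, 7.82 and 7.05 in DMSO day 4, against 2.41, 2.76 and 1.61 in IAA day 2 and 2.58, 2.41 and 1.32 in DMSO day 2. It rose by 2.51 ± 0.10 in BPK25 day 4, while IAA day 2 overlapped its DMSO (0.16 ± 0.27, adjusted p = 0.625). Junb (chr8:84974484-84978718), a component of the AP-1 factor, was at 29.2, 30.3 and 30.1 CPM in BPK25 day 4 and 5.10, 5.34 and 4.26 in DMSO day 4, and at 4.96, 3.85 and 3.42 CPM in IAA day 2 and 5.88, 5.09 and 5.96 in DMSO day 2. It rose by 2.58 ± 0.11 and fell by 0.50 ± 0.17 (adjusted p = 0.0121). Exons of Prdx2 overlap Junb on the other strand.

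Further members followed the same course. Jun rose by 1.96 ± 0.055 in BPK25 day 4 and by 0.25 ± 0.077 in IAA day 2. Fos rose by 2.59 ± 0.23 in BPK25 day 4 and did not pass in IAA day 2 (0.60 ± 0.38, adjusted p = 0.183). Nab2, a corepressor of EGR factors, was at 38.5, 39.1 and 38.1 CPM in BPK25 day 4 and between 2.35 and 4.29 CPM in every library of the other 3 groups. It rose by 3.46 ± 0.13, and in IAA day 2 its change was -0.12 ± 0.22 (adjusted p = 0.669). Nab2 shares exon sequence with Stat6 and Nemp1 on the other strand. The phosphatase gene Dusp8 rose by 3.56 ± 0.21 in BPK25 day 4 and fell by 1.42 ± 0.49 in IAA day 2. The fall of Dusp8 lost its call without replicate 1 of IAA day 2 (-1.12, adjusted p = 0.0634) or of DMSO day 2 (-1.22, adjusted p = 0.061).

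Cavin1, which encodes a coat protein of caveolae, was at 180, 212 and 197 CPM in BPK25 day 4 and 30.3, 29.7 and 25.6 in DMSO day 4, and at 30.9, 28.5 and 26.1 CPM in IAA day 2 and 36.9, 35.3 and 35.0 in DMSO day 2. It rose by 2.76 ± 0.065 and fell by 0.33 ± 0.082, with no overlap in either comparison (adjusted p of the difference 9.54e-29). Ahnak, a very large scaffold protein gene, rose in both, by 1.92 ± 0.046 and 0.29 ± 0.051. The list of Ahnak, annexin, S100 and caveola genes did not move with them. Of 26 tested, 7 rose and 9 fell in BPK25 day 4, near the 26.2% and 26.8% of all genes. In IAA day 2, 7 rose and 12 fell, beside 27.5% and 27.9%.

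**Figure D3:**
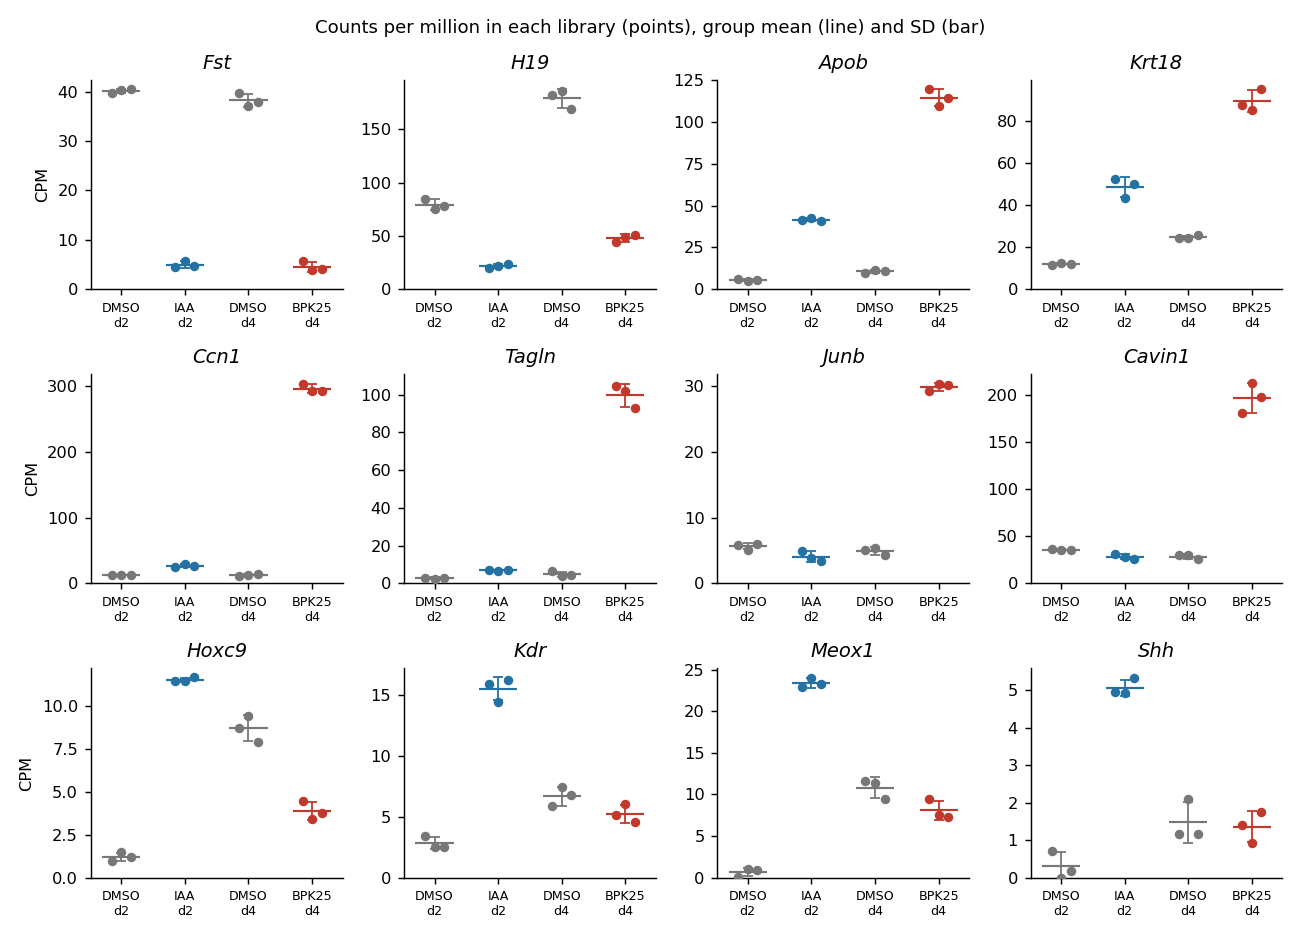
CPM of 12 genes in each library of DMSO day 2, IAA day 2, DMSO day 4 and BPK25 day 4 (3 points a group, line at the mean, bar for the SD). Fst and H19 are low and Apob and Krt18 high in both treated groups, Ccn1, Tagln, Junb and Cavin1 are highest in BPK25 day 4, and Hoxc9, Kdr, Meox1 and Shh are highest in IAA day 2.

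Effects on stress programmes against own-day DMSO differed as well. Of 28 targets of NRF2, the transcription factor of the antioxidant response, 22 rose and 2 fell in BPK25 day 4 (26.2% and 26.8% of all genes). In IAA day 2, 14 rose and 6 fell (27.5% and 27.9%). The sulfiredoxin gene Srxn1 was at 74.5, 75.5 and 72.6 CPM in BPK25 day 4 and 21.3, 23.1 and 22.2 in DMSO day 4, but at 24.1, 21.4 and 23.4 in IAA day 2 and 40.1, 39.4 and 40.3 in DMSO day 2. It rose by 1.74 ± 0.062 and fell by 0.80 ± 0.069 (adjusted p of the difference 1.2e-27). The heme oxygenase gene Hmox1 rose by 1.34 ± 0.074 in BPK25 day 4 and had -0.05 ± 0.078 in IAA day 2 (adjusted p = 0.596). Txnrd1, which encodes thioredoxin reductase, rose in both, by 1.15 ± 0.043 and 0.68 ± 0.043.

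Of 28 targets of p53, the DNA damage factor, 15 rose and 5 fell in BPK25 day 4, beside 26.2% and 26.8% of all genes. In IAA day 2, 2 rose and 14 fell, beside 27.5% and 27.9%. The difference was higher for 23, beside 22.7%. Cdkn1a, which encodes the cell cycle inhibitor p21, was at 38.8, 38.3 and 41.2 CPM in BPK25 day 4 and 16.4, 16.2 and 19.4 in DMSO day 4. It was at 20.3, 21.5 and 22.0 CPM in IAA day 2 and 29.7, 29.2 and 34.7 in DMSO day 2. BPK25 day 4 lay above its control and IAA day 2 below its own, by 1.21 ± 0.085 and -0.56 ± 0.086. Much of the contrast over the list sits in the controls, since 21 of the 28 genes fell from day 2 to day 4 in DMSO (24.5% of all genes did) and none rose. Directly compared, the pair differed by a median of 0.07 over the 28, beside 0.56 for the difference between the effects. Only 1 of the 28 was at least 2-fold higher in BPK25 day 4 and none was lower, beside 4.98% and 1.68% of all genes.

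The controls also moved for the 33 genes of the ATF4 response to amino acid shortage and unfolded protein. In BPK25 day 4, 23 rose and 2 fell (26.2% and 26.8% of all genes did). In IAA day 2, 3 rose and 22 fell (27.5% and 27.9%), and in DMSO itself 28 fell from day 2 to day 4 (24.5%). Trib3, a pseudokinase gene of that response, was at 30.2, 29.9 and 30.9 CPM in DMSO day 2, 11.3, 9.87 and 13.7 in IAA day 2, 8.47, 6.67 and 7.49 in DMSO day 4 and 17.3, 19.7 and 18 in BPK25 day 4. Its effects of 1.27 ± 0.12 and -1.38 ± 0.10 were 2.65 apart, yet BPK25 day 4 lay only 0.64 above IAA day 2 in level. Cbs, which encodes an enzyme of cysteine synthesis, averaged 5.17 CPM in BPK25 day 4 and 5.14 in IAA day 2, and its fall of 2.03 in IAA day 2 was measured against 20.9 CPM in DMSO day 2. Directly compared, 3 of the 33 genes were at least 2-fold higher in BPK25 day 4 and 1 lower, against 17 and 0 of the 28 immediate early genes. Over all genes the shares were 4.98% and 1.68%.

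Hox genes, the homeobox genes that pattern the body axis, were the list with the most members at least 2-fold lower in BPK25 day 4 than in IAA day 2, 10 of 34. In that direct comparison 1.68% of all genes were lower by the same rule. Against own-day DMSO, 23 rose and 5 fell in IAA day 2, 7 rose and 9 fell in BPK25 day 4, and the difference was lower for 24 (27.5%, 27.9%, 26.2%, 26.8% and 23.8% of all genes, in that order). Part of that difference sits in the controls, since 23 rose and 2 fell from day 2 to day 4 in DMSO (median 0.66). Hoxc8 (chr15:102990607-102994111) was at 17.4, 17.3 and 14.6 CPM in IAA day 2 and 0.287, 0.669 and 0.0945 in DMSO day 2, against 5.80, 6.45 and 4.62 in BPK25 day 4 and 7.79, 8.01 and 6.32 in DMSO day 4. IAA day 2 was above the other 9 libraries of these 4 groups, and BPK25 day 4 overlapped its DMSO. Hoxc8 rose by 5.62 ± 0.26 in IAA day 2 and fell by 0.43 ± 0.16 in BPK25 day 4 (adjusted p = 0.0174). IAA day 2 also exceeded the later DMSO day 4, by 1.12. Hoxc9 rose by 3.21 ± 0.20 in IAA day 2 and fell by 1.15 ± 0.15 in BPK25 day 4, where its libraries read 4.48, 3.42 and 3.79 CPM against 8.75, 9.44 and 7.93 in DMSO day 4.

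Single regulators of mesoderm and of patterning were also lower in BPK25 day 4 than in IAA day 2. Of the 27 tested genes of the mesoderm, cardiac and vessel list, 8 rose and 9 fell in BPK25 day 4, near the 26.2% and 26.8% of all genes. In IAA day 2, 11 rose and 6 fell, beside 27.5% and 27.9%. Directly, 3 were at least 2-fold lower and 2 higher in BPK25 day 4, beside 1.68% and 4.98% of all genes. The genes that follow are single cases. Meox1, a homeobox gene of somites, was at 22.9, 24.0 and 23.3 CPM in IAA day 2 and 0.143, 1.07 and 0.946 in DMSO day 2, against 9.45, 7.50 and 7.31 in BPK25 day 4 and 11.6, 11.4 and 9.40 in DMSO day 4. It rose by 4.92 ± 0.20 in IAA day 2 and fell by 0.42 ± 0.13 in BPK25 day 4 (adjusted p = 0.00564). Kdr, the VEGF receptor gene of vessel precursors, was at 15.9, 14.4 and 16.2 CPM in IAA day 2 and 5.14, 6.05 and 4.53 in BPK25 day 4, where it overlapped DMSO day 4 (5.87, 7.44 and 6.76). It rose by 2.46 ± 0.17 in IAA day 2 and had -0.37 ± 0.16 in BPK25 day 4 (adjusted p = 0.0526). The morphogen gene Shh was at 4.96, 4.93 and 5.32 CPM in IAA day 2, 0.717, 0 and 0.189 in DMSO day 2, 1.41, 0.921 and 1.76 in BPK25 day 4 and 1.15, 2.1 and 1.18 in DMSO day 4. Shh rose by 4.12 ± 0.41 in IAA day 2 and had -0.10 ± 0.36 in BPK25 day 4 (adjusted p = 0.831).

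Lars2, which encodes a mitochondrial leucyl-tRNA synthetase, was at 624, 626 and 577 CPM in IAA day 2 and 201, 183 and 192 in DMSO day 2, but at 139, 140 and 140 in BPK25 day 4 and 238, 221 and 220 in DMSO day 4. It rose by 1.66 ± 0.057 and fell by 0.70 ± 0.060. Reads of ribosomal RNA are known to align to Lars2, Gm42418, Gm15564 and Gm23935, and Gm42418 moved likewise, by 1.55 and -0.72. The 4 together took 1.08% ± 0.0514 (SD, n = 3) of counts in IAA day 2, 0.316% ± 0.014 in BPK25 day 4, 0.373% ± 0.00585 in DMSO day 2 and 0.514% ± 0.00662 in DMSO day 4. The part of ribosomal RNA carried into the libraries was not tested.

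Some genes fell below DMSO in BPK25 day 4 and rose above it in IAA day 2. Ednrb, the endothelin receptor gene of neural crest, was at 2.32, 2.37 and 3.42 CPM in BPK25 day 4 and 6.25, 5.24 and 7.34 in DMSO day 4, against 5.59, 6.22 and 6.84 in IAA day 2 and 1.15, 1.47 and 1.51 in DMSO day 2. It fell by 1.17 ± 0.18 and rose by 2.15 ± 0.22. DMSO day 2 was the lowest of the 4 groups and BPK25 day 4 came next, while IAA day 2 overlapped DMSO day 4 (0.03, adjusted p = 0.914). Ptn, the growth factor pleiotrophin, fell by 1.10 ± 0.17 and rose by 1.44 ± 0.18, and Tubb4a, a neuronal tubulin gene, fell by 1.31 ± 0.17 and rose by 2.05 ± 0.24. In the other direction, Nptx2, a secreted pentraxin gene of synapses, was at 8.29, 6.71 and 8.14 CPM in BPK25 day 4 and 2.12, 1.52 and 2.50 in DMSO day 4, but at 2.67, 3.26 and 1.43 in IAA day 2 and 7.88, 5.76 and 5.77 in DMSO day 2. It rose by 1.97 ± 0.22 and fell by 1.39 ± 0.23.

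DMSO itself changed between the days, which bears on effects measured against own-day controls. From day 2 to day 4 in DMSO, 4627 genes rose and 4258 fell (26.6% and 24.5%, 51.1% together). Against DMSO day 4, IAA day 2 was higher for 3274 genes and lower for 3460 (18.8% and 19.9%, 38.7% together). The 1022 genes at least 2-fold higher at day 4 in DMSO had a median of 1.59 there but of -0.02 between BPK25 day 4 and IAA day 2. The 919 at least 2-fold lower had a median of -1.41 in DMSO and of 0.13 between the pair. Single genes lay on both sides: of the 1022, 81 were at least 2-fold higher and 59 lower in BPK25 day 4 than in IAA day 2 with no overlap, and of the 919, 48 were lower and 102 higher. The pair was chosen by these same levels, so the medians are a description.

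Tdgf1, the Nodal co-receptor gene that marks undifferentiated cells, shows this. It was at 136, 156 and 122 CPM in DMSO day 2, 7.12, 6.20 and 6.61 in DMSO day 4, 10, 9.08 and 9.02 in IAA day 2 and 7.46, 7.10 and 7.03 in BPK25 day 4. The pair lay close together, but Tdgf1 fell by 3.88 ± 0.082 against DMSO day 2 and had only 0.12 ± 0.15 against DMSO day 4 (adjusted p = 0.526). Lefty1 and Lefty2, secreted Nodal inhibitors, fell in both, by 1.37 and 1.12 in BPK25 day 4 and by 3.98 and 4.47 in IAA day 2. Nanog, a core pluripotency factor, was at 128, 118 and 136 CPM in DMSO day 2, 51.5, 60.4 and 55.1 in IAA day 2, 37.0, 41.5 and 41.7 in DMSO day 4 and 23.5, 20.3 and 24.5 in BPK25 day 4, and fell by 0.79 ± 0.081 in BPK25 day 4 and 1.19 ± 0.061 in IAA day 2. Pou5f1, which encodes OCT4, fell by 0.67 in IAA day 2 and had 0.06 in BPK25 day 4 (adjusted p = 0.219). Of 22 naive pluripotency genes, 7 rose and 11 fell in BPK25 day 4, beside 26.2% and 26.8% of all genes. In IAA day 2, 2 rose and 19 fell, beside 27.5% and 27.9%, with 10 lower in both. Of 18 core genes, 1 rose and 8 fell against 2 and 14, with 8 lower in both.

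Genes of the two-cell-like state, a rare state of stem cell cultures, moved oppositely against own-day DMSO. Of 22 tested, 16 fell and 4 rose in BPK25 day 4 (median -0.63), beside 26.8% and 26.2% of all genes. In IAA day 2, 18 rose and 1 fell (median 2.04), beside 27.5% and 27.9%. From day 2 to day 4 in DMSO 21 rose, beside 26.6%. Zscan4c was at 13.2, 11.9 and 13.4 CPM in DMSO day 2, 57.8, 61.8 and 60.7 in IAA day 2, 60.8, 60.8 and 61.5 in DMSO day 4 and 40.9, 41.6 and 42.3 in BPK25 day 4. For Zscan4c, IAA day 2 matched the later DMSO within its spread, and BPK25 day 4 fell by 0.55 ± 0.061 below it. Over the list, 13 of the 22 were lower and 2 higher in IAA day 2 than in DMSO day 4 (median -0.27), beside 19.9% and 18.8%. None of the 22 was at least 2-fold apart between the pair. Since copies of Zscan4 are nearly identical in sequence, reads may be split among them and single values are uncertain. Clustered protocadherins, cell recognition genes of neurons whose promoter choice depends on CTCF, had the same directions. Of 36 tested, 21 fell and none rose in BPK25 day 4, beside 26.8% and 26.2% of all genes. In IAA day 2, 22 rose and none fell, beside 27.5% and 27.9%. With time in DMSO 22 rose, beside 26.6%. Between IAA day 2 and DMSO day 4 none of the 36 was called, beside 38.7% of all genes. None was at least 2-fold apart between the pair, beside 6.66%. Members of the gamma cluster share exons and are not independent.

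Of 22 retinoic acid genes, 15 rose and 2 fell in IAA day 2 (median 1.16, beside 27.5% and 27.9% of all genes), and 10 rose and 6 fell in BPK25 day 4 (median 0.20, beside 26.2% and 26.8%). In DMSO itself 16 rose and 2 fell from day 2 to day 4 (median 0.72, beside 26.6% and 24.5%). Directly compared, 2 genes were at least 2-fold higher and 2 lower in BPK25 day 4, beside 4.98% and 1.68% of all genes. Crabp2, which encodes a carrier of retinoic acid into the nucleus, was at 417, 393 and 413 CPM in IAA day 2 and 21.2, 23.3 and 20.7 in DMSO day 2, against 186, 201 and 170 in BPK25 day 4 and 171, 179 and 176 in DMSO day 4. It rose by 4.23 ± 0.071 in IAA day 2 and had 0.08 in BPK25 day 4 (adjusted p = 0.228). Of 32 genes of cholesterol and fatty acid synthesis, 19 rose and 5 fell in IAA day 2, beside 27.5% and 27.9% of all genes. In BPK25 day 4, 16 fell and 3 rose, beside 26.8% and 26.2%. In DMSO itself 18 fell and 3 rose from day 2 to day 4, beside 24.5% and 26.6%. Directly compared, 2 of the 32 were at least 2-fold lower in BPK25 day 4 and none higher, beside 1.68% and 4.98%. Hmgcs1, an enzyme gene of the mevalonate pathway, was at 368, 378 and 367 CPM in IAA day 2, between 222 and 240 CPM in both DMSO groups and at 171, 177 and 170 in BPK25 day 4. It rose by 0.69 ± 0.041 and fell by 0.38 ± 0.042 (difference -1.07 ± 0.058).

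**Figure D4:**
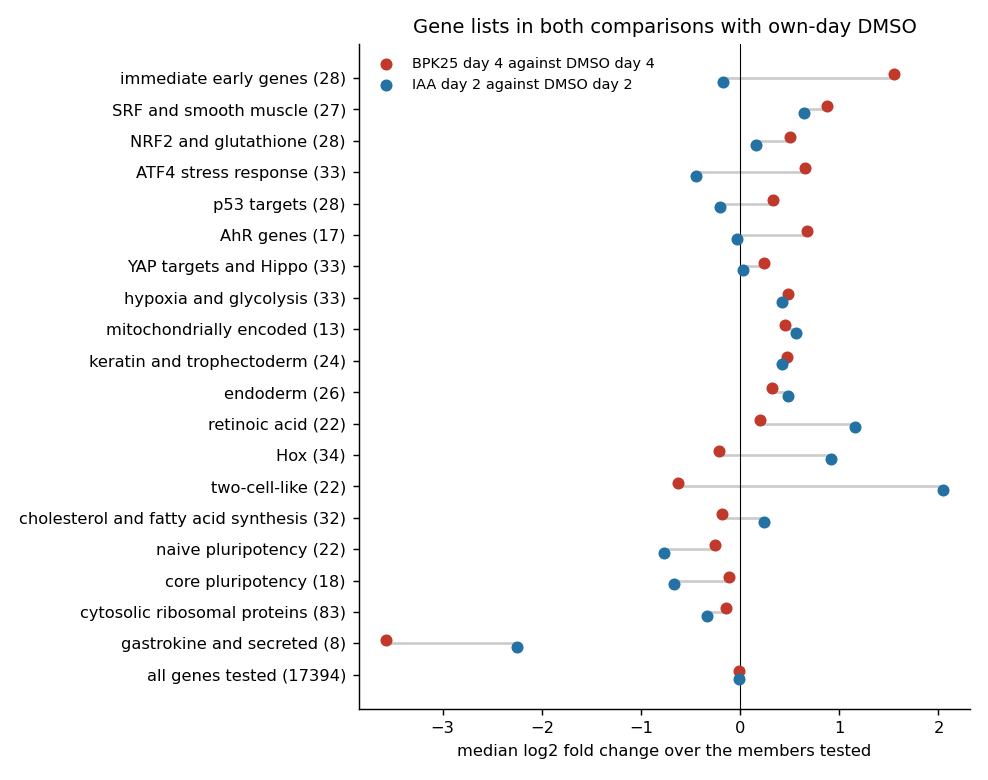
Median log2 fold change over the tested members of 19 gene lists and of all genes tested (member number in brackets), in BPK25 day 4 (red) and IAA day 2 (blue), each against DMSO of its own day. Both points lie on the same side of 0 for SRF, glycolysis, mitochondrial, keratin, ribosomal protein and gastrokine lists, and on opposite sides for immediate early, ATF4, p53, Hox, two-cell-like and cholesterol lists.

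Among FGF and ERK feedback genes, 9 of 17 rose and 2 fell in BPK25 day 4 (26.2% and 26.8% of all genes did), while 3 rose and 9 fell in IAA day 2 (27.5% and 27.9%). In DMSO itself 3 rose and 11 fell from day 2 to day 4 (median -0.72), beside 26.6% and 24.5%. The ERK phosphatase gene Dusp6 rose in both, by 1.59 ± 0.072 and 0.62 ± 0.069, whereas the ERK feedback gene Spry4 rose by 0.98 ± 0.17 and fell by 1.13 ± 0.13. Among BMP genes, 11 of 23 fell and 5 rose in BPK25 day 4, beside 26.8% and 26.2% of all genes. In IAA day 2, 7 fell and 9 rose, beside 27.9% and 27.5%. From day 2 to day 4 in DMSO, 10 rose and 2 fell, beside 26.6% and 24.5%. Id1 and Id3, direct targets of BMP signals, rose in IAA day 2 by 0.93 ± 0.14 and 1.72 ± 0.36 and fell in BPK25 day 4 by 0.33 ± 0.11 and 0.83 ± 0.21.

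No NuRD subunit gene was 2-fold apart between the groups of the pair. Of 15 tested, 6 rose and 6 fell in BPK25 day 4, beside 26.2% and 26.8% of all genes. In IAA day 2, 8 rose and 6 fell, beside 27.5% and 27.9%, and 5 rose and 5 fell in both. The scaffold gene Gatad2b was at 119, 118 and 118 CPM in BPK25 day 4 and 71.8, 70.2 and 66.1 in DMSO day 4, and at 80.4, 89.8 and 95.7 CPM in IAA day 2 and 69.2, 67.5 and 66.8 in DMSO day 2. It rose by 0.77 ± 0.052 and 0.39 ± 0.055, more in BPK25 day 4 (adjusted p = 5.35e-05), and Gatad2a rose by 0.39 and 0.41. The histone chaperone gene Rbbp7 rose by 0.38 ± 0.041 and 1.05 ± 0.042, while its paralogue Rbbp4 fell by 0.46 and 0.59. Chd5, the remodeller gene of neurons, was the subunit with opposite calls and the larger gap: it was at 37.4, 40.9 and 38.5 CPM in BPK25 day 4 and 13.8, 16.3 and 16.8 in DMSO day 4, and at 26.4, 23.7 and 23.0 CPM in IAA day 2 and 33.1, 39.4 and 35.5 in DMSO day 2. It rose by 1.32 ± 0.087 and fell by 0.57 ± 0.083. The remodeller gene Chd4 had -0.01 in BPK25 day 4 (adjusted p = 0.885) and rose by 0.52 in IAA day 2.

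Among the remaining subunits, Hdac1 fell in both, by 0.50 and 0.16, and Mta2 by 0.58 and 0.46. Mta3 fell by 0.31 and 0.24, and Mta1 and Chd3 rose in both, by 0.14 and 0.36 and by 0.20 and 0.34. Mbd3, the other subunit with opposite calls, had -0.12 (adjusted p = 0.0144) and 0.13 (adjusted p = 0.00775). The Mbd3 call in BPK25 day 4 was lost without replicate 1 or 3 of that group (adjusted p = 0.0572 and 0.0837) and with no filter (0.0513), and its call in IAA day 2 without replicate 3 of IAA day 2 (0.103). Mbd2 passed in neither (-0.11 and 0.08). Hdac2 had -0.08 (adjusted p = 0.504) and 0.25 (adjusted p = 0.0338), a call lost without replicate 3 of BPK25 day 4, IAA day 2 or DMSO day 2 (adjusted p = 0.057, 0.256 and 0.19) and under DESeq2 (0.112). Cdk2ap1 had -0.17 and -0.15 (adjusted p = 0.0301 and 0.0347), calls that reached 0.296 without replicate 3 of BPK25 day 4 and 0.118 without replicate 3 of IAA day 2.

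Ctcf (chr8:105636568-105682922) was at 423, 408 and 413 CPM in BPK25 day 4 and 315, 315 and 301 in DMSO day 4, and at 351, 351 and 347 CPM in IAA day 2 and 301, 299 and 276 in DMSO day 2. Neither treated group overlapped its DMSO. Ctcf rose by 0.42 ± 0.040 (adjusted p = 1.63e-12) and 0.26 ± 0.041 (adjusted p = 3.06e-07). The difference of 0.15 ± 0.057 (adjusted p = 0.0241) was lost without replicate 1 of BPK25 day 4 (0.067), replicate 1 of DMSO day 2 (0.0813) or replicate 3 of DMSO day 4 (0.0768), and with no filter (0.175). Agrp overlaps a Ctcf exon on the other strand. Of 20 CTCF and cohesin genes, 7 rose and 9 fell in BPK25 day 4, beside 26.2% and 26.8% of all genes. In IAA day 2, 8 rose and 5 fell, beside 27.5% and 27.9%.

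A set of genes marked by IAA was taken from days that neither comparison uses, those at least 2-fold changed in the same direction at days 0 and 6 of IAA against DMSO. This rule was chosen after seeing the data and its counts are a description. Of 229 such genes higher in IAA, 150 were higher and 2 lower in BPK25 day 4 (median 1.01), beside 26.2% and 26.8% of all genes. In IAA day 2, 95 were higher and 21 lower (median 0.59). In BPK25 day 2 against DMSO day 2, 10 were higher and 6 lower (median 0.07), beside 6.4% and 7.12% of all genes. Of 147 such genes lower in IAA, 93 were lower and 5 higher in BPK25 day 4 (median -0.89), 75 lower and 22 higher in IAA day 2 (median -0.89), and 2 lower and 13 higher in BPK25 day 2 (median 0.09).

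Single genes across the 4 days show the same order. Myo7a averaged 117, 106, 13 and 55.9 CPM in BPK25, 122.5, 97.7, 85.2 and 72.7 in DMSO and 83.0, 9.65, 7.44 and 3.94 in IAA. Apob averaged 4.87, 4.45, 114 and 11.1 CPM in BPK25, 6.17, 5.69, 10.6 and 8.51 in DMSO and 4.48, 41.5, 32.9 and 44.3 in IAA. For both genes BPK25 lay on the same side of DMSO as IAA at day 4, and nearer to DMSO than to IAA at days 2 and 6. Cavin1, at 43.3, 38.8, 196 and 31.7 CPM in BPK25 and 90.1, 28.5, 23.1 and 32.5 in IAA, was at day 4 of BPK25 above every other group.

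**Figure D5:**
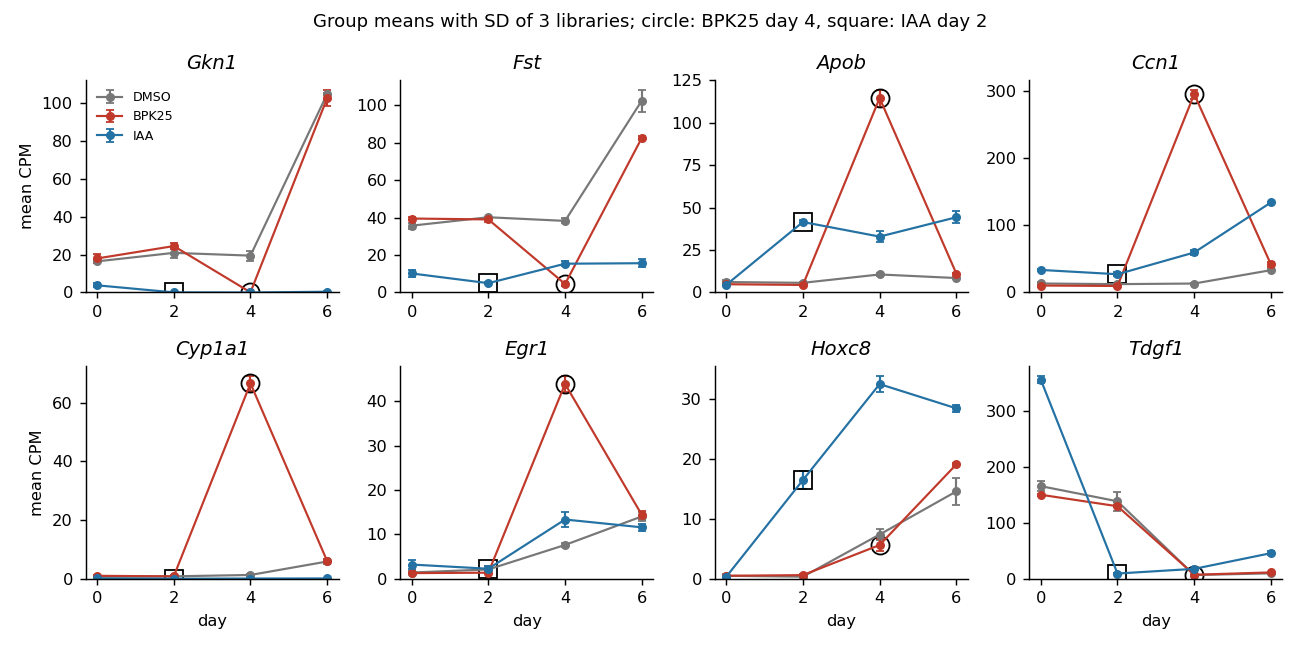
Mean CPM with SD (3 libraries) of 8 genes at days 0, 2, 4 and 6 in DMSO (grey), BPK25 (red) and IAA (blue), with a circle at BPK25 day 4 and a square at IAA day 2. Gkn1 and Fst drop and Apob, Ccn1, Cyp1a1 and Egr1 peak at day 4 of BPK25, while Hoxc8 and Tdgf1 keep close to DMSO there.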

How the data were processed

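Polyadenylated RNA of mouse embryonic stem cells was made into libraries with a SMARTER kit, per the labels' protocols. The authors deposited raw read counts per gene for 36 libraries in 12 groups of 3. The submitters' processing notes list mm10, HISAT2 2.1.0, featureCounts 2.0.1, FastQC 0.11.7 and DESeq2 without roles. Strand setting and annotation release were not given in the sources used here. Positions are from GENCODE M21 (GRCm38), which matched 17378 (99.9%) of the genes tested, and promoters are from RefSeq (GRCm38.p6), which matched 11825 of 17369 symbols (68.1%). In 105 cases several gene IDs had the same symbol.

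Everything else was computed from the counts with R 4.3.3. Genes were kept by filterByExpr in edgeR 4.0.16 (minimum count 10, minimum total 15), scaled by TMM, and fitted in 1 model of 12 groups with the quasi-likelihood test. P-values are two-sided, adjusted by Benjamini-Hochberg over 17394 genes and called under 0.05. CPM uses TMM-scaled totals, and ± beside a log2 fold change is an approximate standard error, the absolute change over the root of the F statistic. Distances used log2 CPM with a prior count of 2. Ratios of few counts have exact 95% intervals, which cover counting error only. The common biological coefficient of variation was 3.86%. Replicates differed by more than sampling noise (chi-square per degree of freedom 1.587 to 3.066 over 12 pairs).

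The pair, the 38 gene lists and the naming rule were chosen with earlier results of these data known. Named genes had a mean of at least 5 CPM in 1 of the 4 groups and no predicted or clone name. They were the 8 shared and the 8 separated genes with the largest change each way, the 5 opposite each way, members that lead or define a list, Ctcf, NuRD subunits and Cyp1a1. Not all that met the rule are described. H19, Igf2 and Gm42418 were added for context, and genes in the text beyond the rule were chosen after their values were seen. On simulated counts for BPK25 day 4 against DMSO day 4 over 17165 genes, 50 genes each were changed 1.25, 1.5, 2 and 4-fold. The test recovered 50%, 56%, 64% and 92% of them, with 5.07% false calls. For the difference between the effects it recovered 36%, 38%, 56% and 88%, with 6.84% false calls. The simulation used the spread estimated by the fit and called only 138 and 117 genes. In the data 53% and 46.5% were called, so these rates do not carry over to the reported calls. Alternatives were RLE size factors, DESeq2 1.42.0, leaving the filter out, requiring at least 1 CPM in 3 libraries, fitting the 12 libraries of the 4 groups alone, a replicate term, other prior counts for the distance, and leaving out each library in turn.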

Additional observations from a re-analysis of the deposited data

Results flagged for a closer look

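Effects that differed between groups under the same kind of contrast were singled out by the test of the difference itself, edgeR's quasi-likelihood test with Benjamini-Hochberg adjustment. The effect of BPK25 at day 4 against DMSO differed from that of IAA at day 2 for 3945 genes in the higher and 4140 in the lower direction. These were 22.7% and 23.8% of genes tested, and that contrast holds the treated levels by which the pair was chosen. The effect of BPK25 at day 4 differed from its effect at day 2 for 3452 genes higher and 3583 lower (19.8% and 20.6%). It differed from its effect at day 6 for 3452 higher and 3591 lower (19.8% and 20.6%, 40.5% together). With 3 libraries a group, single libraries were not checked for outlying values.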

How the results depend on the processing

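No result reversed under any alternative run. Leaving out the low-count filter lowered the correlation of the effects to a Pearson r of 0.0842 and a Spearman rho of 0.113 and raised the genes 2-fold apart between BPK25 day 4 and IAA day 2 to 1579 higher and 641 lower. The distance between them was 0.583 with a prior count of 0.5 and 0.441 with 5, and 0.514 to 0.525 without a replicate, and IAA day 2 stayed nearest in all 11 settings. DESeq2 called 4129 and 4256 genes in BPK25 day 4 and 4400 and 4488 in IAA day 2. Without single libraries these counts were 4130 to 4652 and 4221 to 4805, and 4177 to 4810 and 4403 to 5188. Genes 2-fold apart then numbered 953 to 1054 and 362 to 413. Replicate numbers did not pair the libraries (correlations of deviations -0.0326 to 0.0334, 5 of 18 best with their own number), and a replicate block gave 4545 and 4643 calls in BPK25 day 4, 4763 and 4851 in IAA day 2 and 3915 and 4125 for the difference. Of the values of single genes under an alternative, 2265 kept their call, 33 lost it and 6 gained it. The causes were not tested. Counts limit genes near 0, such as Gkn1, Gkn2 and Cyp1a1, where only ratios with wide intervals can be given.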
